A study of Mus musculus with 12 samples.

Results

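Tubulins are the building blocks of microtubules, and microtubule-associated proteins (MAPs) are the proteins that bind along them. Their 10 genes named here, Tuba1a, Tubb3, Tubb2a, Tubb4a, Tubb5, Map2, Map1a, Map1b, Mapt and Map4, were taken by name from the 41388 gene identifiers that the count files list. They were followed through 12 RNA-seq libraries of 4 groups, with 3 libraries in each. All 10 were among the 13364 genes that passed a filter on low counts and were tested. The groups were PAP TRAP, in which the tag was immunoprecipitated from a synaptoneurosome fraction, which is made by homogenizing tissue and collecting pinched-off synaptic endings (PAP stands for peripheral astrocyte process), cortex TRAP, in which it was immunoprecipitated from whole tissue, synaptoneurosome input, the fraction before immunoprecipitation, and cortex input, the whole tissue before immunoprecipitation. TRAP, translating ribosome affinity purification, pulls ribosomes with a green fluorescent tag out of a lysate together with the RNA bound to them. The tissue of all 4 groups was cortex with hippocampus, taken at postnatal day 21 from C57/Bl6 mice with the Aldh1L1::RPL10a-eGFP transgene, and all were treated with cycloheximide at 1 ug/mL and TTX at 1 mM. The Aldh1l1 promoter is active in astrocytes, so the tag marks astrocyte ribosomes, while both inputs hold RNA of every cell type in the tissue. The labels name the cell type as astrocytes for every library, and they do not say whether libraries of a group came from separate animals.

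A microtubule is a hollow tube of paired alpha- and beta-tubulins, each made by several genes whose proteins differ mainly in a short acidic tail at their end. Free tubulin feeds back on its own messages: when it is in excess, ribosomes that translate tubulin are recognised by the first residues of the emerging chain and the message is degraded. The long neuronal MAPs sort within the cell, with MAP2 in dendrites and tau, the product of Mapt, in axons, whereas MAP4 is the MAP of most cells outside neurons, glia included. Map2 is a textbook example of a message that neurons send into dendrites.

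The first 30 coding bases of the tubulin messages are shown, with the first 4 codons, which encode the first residues of the chain, in capitals. All sequences were read from GENCODE M21 transcripts (GRCm38), 5′ to 3′ in the sense of the message, and lie in coding exons.
Tuba1a: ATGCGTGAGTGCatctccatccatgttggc
Tubb3: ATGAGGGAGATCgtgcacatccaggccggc
Tubb2a: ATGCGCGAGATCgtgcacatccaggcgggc
Tubb4a: ATGCGGGAAATCgtgcacctgcaagccggt
Tubb5: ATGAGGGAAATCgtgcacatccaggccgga
The pairs among the 4 beta-tubulins matched at 76.7% to 93.3% of these positions, so a read from this stretch tells their messages apart by few bases. Tuba1a lies at chr15:98949837-98953703 on the minus strand, Tubb3 at chr8:123411424-123422015 on the plus strand, Tubb2a at chr13:34074274-34078007 on the minus strand, Tubb4a at chr17:57080066-57087782 on the minus strand and Tubb5 at chr17:35833921-35838306 on the minus strand.

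The last 60 coding bases before the stop codon, which encode the tail, set the 4 beta-tubulins apart.
Tubb3: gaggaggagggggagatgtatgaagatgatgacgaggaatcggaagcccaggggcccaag
Tubb2a: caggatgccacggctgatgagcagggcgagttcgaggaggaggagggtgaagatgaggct
Tubb4a: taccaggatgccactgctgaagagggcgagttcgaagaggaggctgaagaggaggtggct
Tubb5: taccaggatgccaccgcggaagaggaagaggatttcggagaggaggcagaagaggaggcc
Set base against base without gaps, these ends matched at 40% to 70.0% of positions, with Tubb3 the most distant from Tubb2a and Tubb4a (40% each) and Tubb4a and Tubb5 the closest pair (70.0%). How far a whole message is its own matters for counting. Of all 50-base stretches of the transcript used, 75.5% in Tuba1a also occur in transcripts of other genes, among them Tuba1b and Tuba1c, and 49.6% in Tubb2a also occur elsewhere, chiefly in Tubb2b. The counts of Tuba1a and Tubb2a are therefore uncertain, and Tuba1a also shares 473 bases of exon with the overlapping gene Gm49450 on the same strand. No such stretch of the transcripts used for Tubb3, Map1b, Mapt or Map4 was shared, and the share was at most 1.89% in the other 4 genes. For Mapt the transcript used held just its 2250 coding bases, against 5253 in the longest transcript. For Map4 it held 6091 bases, against 15143 in all annotated exons. Exon sequence outside the transcripts used was not checked.

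Map2, Mapt and Map4 belong to a single family that holds microtubules with repeats. The repeats shown close on a proline and a run of glycines, whose codons are in capitals. A repeat of Map2 and its nearest counterparts in Mapt and Map4 are given.
Map2: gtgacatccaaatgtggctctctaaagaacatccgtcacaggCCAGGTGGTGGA
Mapt: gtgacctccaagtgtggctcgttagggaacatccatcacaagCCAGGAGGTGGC
Map4: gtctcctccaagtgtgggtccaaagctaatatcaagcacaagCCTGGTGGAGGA
This Map2 repeat matched that of Mapt at 81.5% of its 54 bases and that of Map4 at 66.7%. The annotated transcripts used here held 2 exact motifs of a proline and 3 glycines in Map2, 4 in Mapt and 3 in Map4. Repeats with any other ending were not counted, so these are not counts of all repeats. Map1a and Map1b, which bind microtubules without this repeat, form a family of their own. Map2 lies at chr1:66175273-66442583 on the plus strand, Map1a at chr2:121289600-121310832 on the plus strand, Map1b at chr13:99421446-99516540 on the minus strand, Mapt at chr11:104231390-104332090 on the plus strand and Map4 at chr9:109931460-110083955 on the plus strand. Map2 overlaps the antisense gene Gm10558 over 124 exon bases and Map1a overlaps Ppip5k1 on the other strand over 272, and whether counting used the strand is not given in the sources used here.

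Gene counts per library ranged from 4918113 to 17553985. Mitochondrial transcripts took 35.6% to 47.6% of them in PAP TRAP, 1.03% to 1.28% in cortex TRAP, 83.8% to 91.9% in synaptoneurosome input and 44.8% to 50.2% in cortex input, which left 1423296 to 7777763 nuclear counts, fewest in the synaptoneurosome inputs. The labelled cell type was checked with 10 astrocyte markers: their summed share of nuclear counts was 4.76% to 9.35% in PAP TRAP, 6.80% to 9.999% in cortex TRAP, 3.97% to 4.78% in synaptoneurosome input and 0.781% to 0.866% in cortex input. All 10 had counts in every library. In every group this sum came mostly from Slc1a2. Its mean, as counts scaled to library size (normalized CPM), was 29400 in PAP TRAP and 22977 in cortex TRAP. The next highest astrocyte marker, Glul, had means of 2517.5 in PAP TRAP and 6037.7 in cortex TRAP. The other 9 markers all had lower means in PAP TRAP than in cortex TRAP, which the summed share does not show. The summed share of 10 neuron markers was 0.454% to 0.659% in PAP TRAP, 0.203% to 0.315% in cortex TRAP, 1.17% to 1.57% in synaptoneurosome input and 1.88% to 2.11% in cortex input. Every neuron marker had counts in every library, both immunoprecipitates included.

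The first comparison, PAP TRAP against cortex TRAP, asked which messages differ between astrocyte ribosomes of the fraction, away from the cell body, and those of the whole tissue. MAP messages stood much higher in PAP TRAP: Map1a 23.2-fold, Map1b 9.51-fold and Map2 6.56-fold, with Mapt 1.71-fold. The tubulins Tubb3, Tubb4a, Tuba1a and Tubb5 were higher by 3.83-, 2.86-, 1.99- and 1.85-fold, and Tubb2a alone was lower, by 2.53 times. In all, 8 of the 10 genes were called higher and 1 lower at an adjusted p under 0.05 (edgeR quasi-likelihood F test, Benjamini-Hochberg over all genes tested), where 33.9% of the 13364 genes were called, 19.3% higher and 14.6% lower. The median log2 change was 1.25 over the 10 genes, 0.99 over the 5 tubulins and 2.71 over the 5 MAPs, against -0.28 over all genes tested. In bulk samples such as these, fewer cells of a type and less RNA per cell cannot be told apart.

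Other messages moved beside them. The 6 dendritic messages listed outside the 10 genes (Camk2a, Shank1, Shank3, Dlgap3, Ddn and Arc) were all called higher in PAP TRAP, with a median log2 change of 5.14, and made up 2.12% to 3.34% of nuclear counts there against 0.0537% to 0.0782% in cortex TRAP. Of the neuron markers, 9 of 10 were called higher (median 2.68), of the markers of myelinating oligodendrocytes 6 of 8 (median 3.07), with summed shares of 0.783% to 1.04% in PAP TRAP and 0.0590% to 0.0882% in cortex TRAP, and of the microglia markers 5 of 6 (median 3.47). Both markers of oligodendrocyte precursors and 1 of 2 tested endothelial markers were called higher too, while the endothelial marker Cldn5 was at 0 in all libraries of PAP TRAP, synaptoneurosome input and cortex input. No marker of the dendritic, neuron, myelin or microglia lists was at 0 in all libraries of a group, and 9 of the 10 astrocyte markers were called lower in PAP TRAP (median -1.43). The part of other cell types in the changes of tubulin and MAP messages was not tested. Genes with more exon sequence also moved as a class: over 13292 genes, the log2 change and the exon length had a Spearman correlation of 0.37. In the comparisons below it was -0.276 for cortex TRAP against cortex input and 0.26 for the difference of both changes over input. For PAP TRAP against synaptoneurosome input it was 0.0159, and for synaptoneurosome input against cortex input 0.102. Exon length, here and in the exon-length offsets, is the union of all annotated exons of a gene. It was 7531 to 16449 bases for the 5 MAPs and 1610 to 3327 for the 5 tubulins. The longest single transcripts were 5.25 to 11.8 kb for the MAPs and 1.61 to 2.65 kb for the tubulins. Map2 had a union of 16449 bases against a transcript of 6258, and Map4 15143 against 6091.

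**Figure D1:**
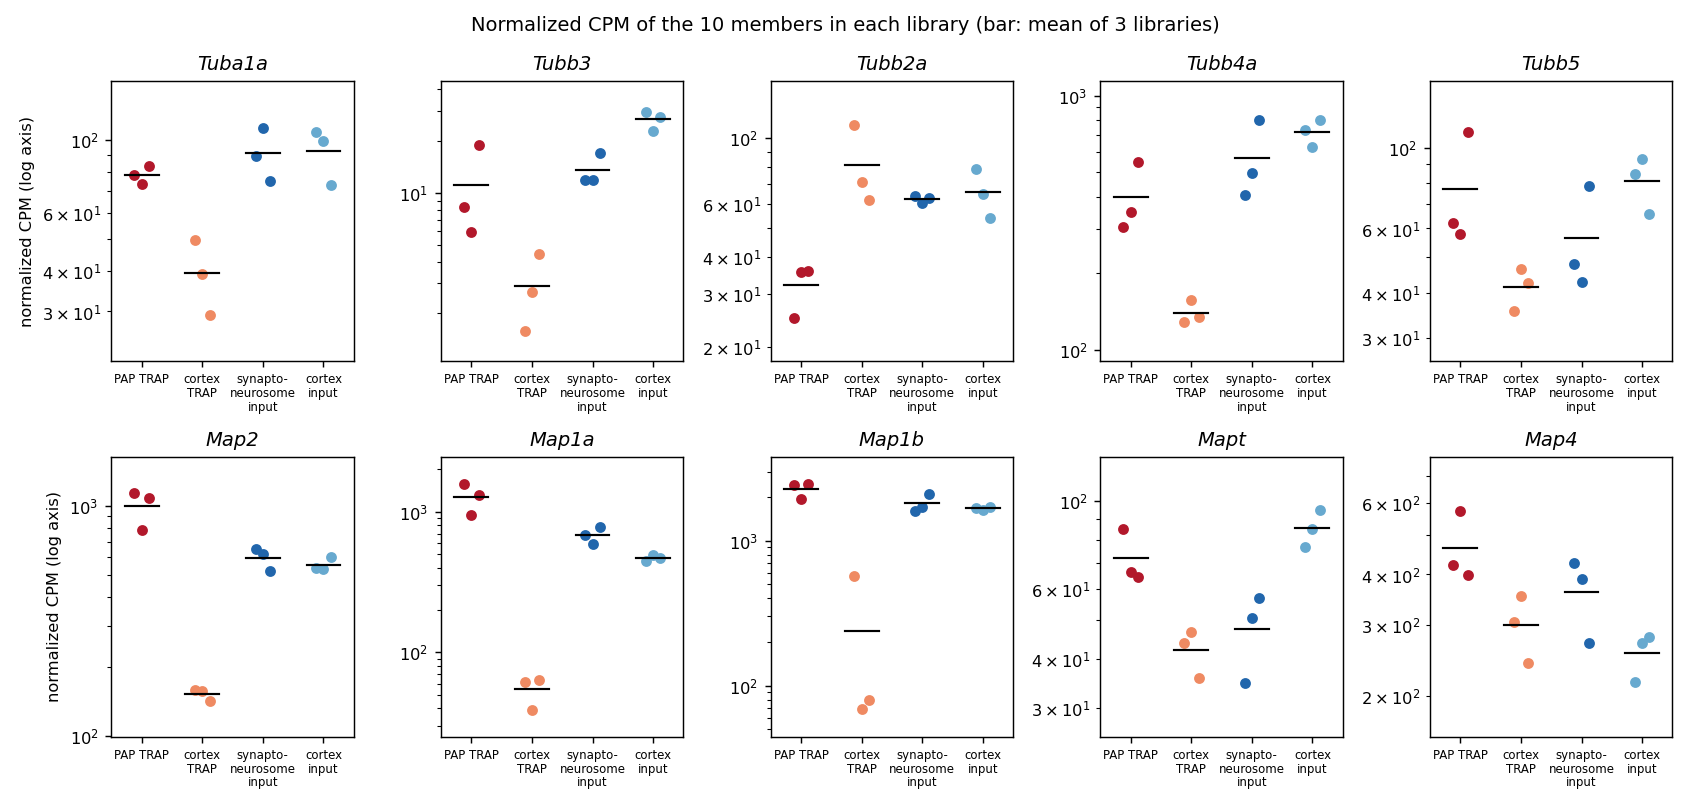
Normalized CPM (counts scaled to library size, log axis, a scale of its own in each panel) of the 10 genes, with 1 point per library and a bar at the mean of 3 libraries, for PAP TRAP, cortex TRAP, synaptoneurosome input and cortex input. Map1a reads 946 to 1574 in PAP TRAP and 39.1 to 63.9 in cortex TRAP, Tubb2a is the panel in which PAP TRAP lies lowest, and Map1b shows 1 cortex TRAP library at 567 above the other 2.

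Among the beta-tubulins, Tubb3, the isotype by which neurons are commonly recognised, had the lowest mean per kb of transcript of the 10 genes in every group. It had 8.34, 5.95 and 19.0 normalized CPM in the PAP TRAP libraries, 1.59, 2.65 and 4.42 in cortex TRAP, 11.9, 11.9 and 17.0 in synaptoneurosome input, and 29.6, 22.9 and 27.8 in cortex input. PAP TRAP lay above cortex TRAP without overlap, but with PAP TRAP replicate 3 far above the other PAP TRAP libraries, and the cortex inputs stood above all others. PAP TRAP over cortex TRAP gave a log2 change of 1.94 ± 0.50 (SE, adjusted p = 0.00598). Without PAP TRAP replicate 3 it was 1.31 with an adjusted p of 0.0521, which ends the call, and without cortex TRAP replicate 3 it was 2.54.

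Tubb4a, a beta-tubulin made in neurons and at high level in myelinating oligodendrocytes, had the highest mean per kb of transcript among the 5 tubulins in every group. It had 305, 348 and 548 normalized CPM in PAP TRAP, 128, 157 and 135 in cortex TRAP, 407, 495 and 799 in synaptoneurosome input, and 731, 628 and 801 in cortex input. All 3 cortex TRAP libraries lay below every library of the other groups. The log2 change of PAP TRAP over cortex TRAP was 1.51 ± 0.28 (adjusted p = 0.000321), and the call held under every alternative fit run, with adjusted p-values from 2.43e-07 to 0.00309.

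Tubb2a, a beta-tubulin abundant in brain and a near copy of Tubb2b, ran the other way. It had 25.01, 35.5 and 36.0 normalized CPM in PAP TRAP, 111, 71.4 and 61.9 in cortex TRAP, 63.8, 60.6 and 62.7 in synaptoneurosome input, and 78.4, 64.7 and 53.98 in cortex input. The 3 PAP TRAP libraries were the lowest of the 12, and the other groups overlapped. The log2 change of PAP TRAP over cortex TRAP was -1.34 ± 0.29 (adjusted p = 0.0014). With offsets corrected for exon length it was -0.33 with an adjusted p of 0.399, so this call depends on that setting.

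Tuba1a, the main alpha-tubulin of developing neurons, ranged from 73.3 to 83.4 normalized CPM in PAP TRAP, from 29.3 to 49.6 in cortex TRAP, from 75.1 to 109 in synaptoneurosome input and from 72.8 to 105 in cortex input. Tubb5, a beta-tubulin made in most cell types, ranged from 58.0 to 111 in PAP TRAP, from 35.7 to 46.4 in cortex TRAP, from 42.7 to 78.4 in synaptoneurosome input and from 65.8 to 92.7 in cortex input. For both genes PAP TRAP and cortex TRAP did not overlap, while PAP TRAP overlapped both inputs. The log2 changes of PAP TRAP over cortex TRAP were 0.99 ± 0.27 for Tuba1a (adjusted p = 0.00843) and 0.89 ± 0.31 for Tubb5 (adjusted p = 0.0333). The Tubb5 call was lost without PAP TRAP replicate 3 (0.54, adjusted p = 0.213) and without cortex TRAP replicate 1 (0.92, adjusted p = 0.0527). With exon-length offsets the change of Tuba1a was 1.92, that of Tubb3 2.88 and that of Tubb4a 2.30.

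Among the MAPs, Map2 codes for the dendritic MAP. It had 1135, 784 and 1081 normalized CPM in PAP TRAP, 158, 157 and 142 in cortex TRAP, 648, 616 and 522 in synaptoneurosome input, and 536, 533 and 598 in cortex input. The PAP TRAP libraries were the 3 highest and the cortex TRAP libraries the 3 lowest of the 12, with both inputs between them. The log2 change of PAP TRAP over cortex TRAP was 2.71 ± 0.23 (adjusted p = 2.44e-08). With exon-length offsets it was 1.31 (adjusted p = 0.000135), still called.

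Map1a, a MAP whose level grows as neurons mature, showed the widest gap. It had 1574, 946 and 1313 normalized CPM in PAP TRAP, 61.9, 39.1 and 63.9 in cortex TRAP, 681, 589.7 and 774 in synaptoneurosome input, and 449.9, 495 and 472 in cortex input. The 4 groups did not overlap with each other at any point, in the order PAP TRAP, synaptoneurosome input, cortex input, cortex TRAP. The log2 change of PAP TRAP over cortex TRAP was 4.54 ± 0.28 (adjusted p = 6.49e-10), a fold of 23.2 with a 95% interval of 15.4 to 34.9. With exon-length offsets it was 3.49 (adjusted p = 1.19e-08).

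Map1b, its close relative and an early MAP of growing axons, had the highest mean per kb of transcript of the 10 genes in PAP TRAP. It had 2416, 1946 and 2447 normalized CPM in PAP TRAP, 567, 68.6 and 80.1 in cortex TRAP, 1600.1, 1717 and 2108 in synaptoneurosome input, and 1689.9, 1626 and 1721 in cortex input. Cortex TRAP replicate 1 stood far above the other cortex TRAP libraries, and even so below every library of the other groups. The log2 change of PAP TRAP over cortex TRAP was 3.25 ± 0.55 (adjusted p = 0.000144). Without cortex TRAP replicate 1 it was 5.06 (adjusted p = 7.43e-11), and with exon-length offsets 1.87 (adjusted p = 0.0118).

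Mapt, the gene of tau, had 85.0, 66.4 and 64.3 normalized CPM in PAP TRAP, 43.8, 46.7 and 35.8 in cortex TRAP, 34.6, 50.8 and 56.9 in synaptoneurosome input, and 76.6, 85.2 and 94.8 in cortex input. PAP TRAP lay above cortex TRAP and synaptoneurosome input without overlap and shared the range of cortex input. For PAP TRAP over cortex TRAP the log2 change was 0.77 ± 0.27 (adjusted p = 0.0324). This call was lost without PAP TRAP replicate 1 (adjusted p = 0.119), with no filter on low counts (adjusted p = 0.0893) and with exon-length offsets (0.28, adjusted p = 0.46).

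Map4, the MAP of cells outside neurons, differed least between group means. It had 423, 572 and 399.6 normalized CPM in PAP TRAP, 305, 355 and 242 in cortex TRAP, 428, 389 and 270.2 in synaptoneurosome input, and 217, 271 and 280.2 in cortex input. PAP TRAP lay above cortex TRAP and cortex input without overlap and overlapped synaptoneurosome input. The other groups overlapped each other, synaptoneurosome input and cortex input only narrowly. Its log2 change of PAP TRAP over cortex TRAP was 0.63 ± 0.25 with an adjusted p of 0.0556, which missed the threshold. It passed under several alternatives, for instance without mitochondrial genes (0.76, adjusted p = 0.0213) and without cortex TRAP replicate 2 (0.90, adjusted p = 0.0233), and turned to -0.66 (adjusted p = 0.0595) with exon-length offsets.

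**Figure D2:**
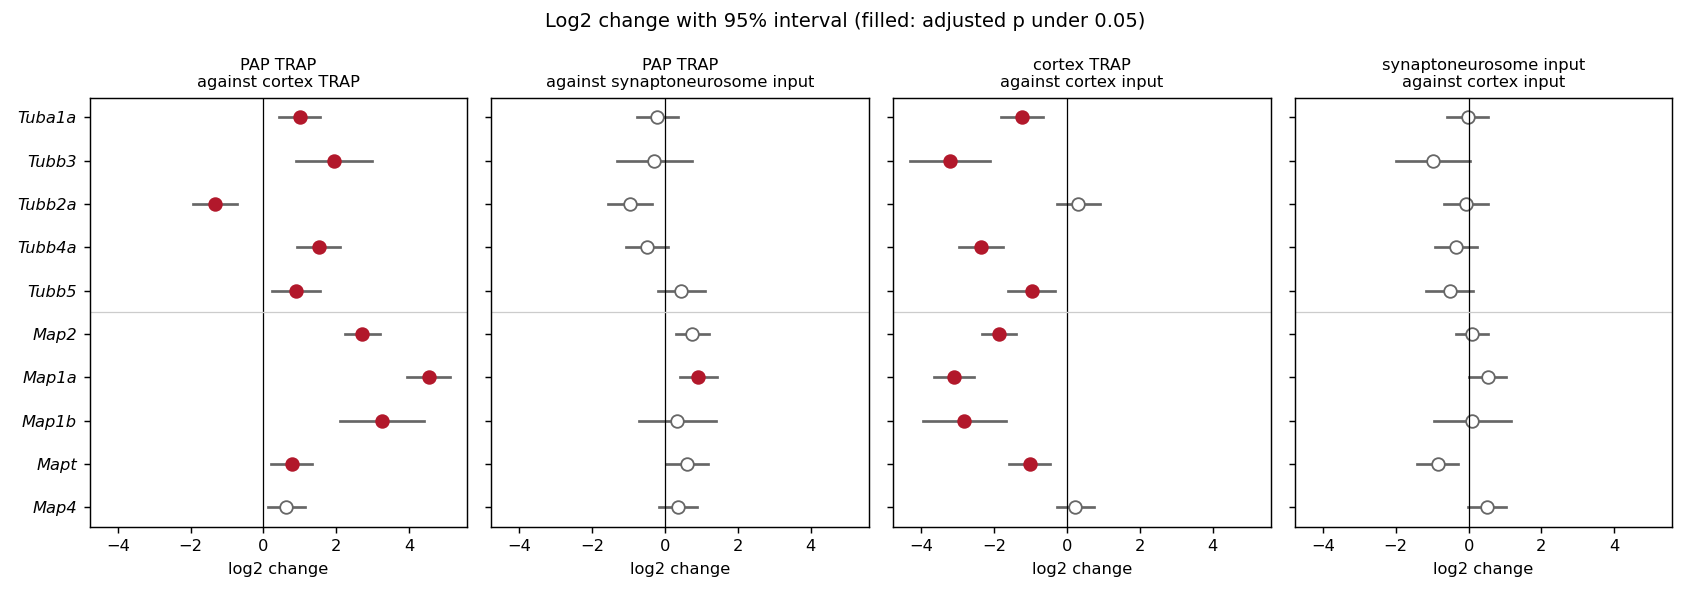
Log2 change of each gene with its 95% interval in 4 comparisons, with filled points where the adjusted p was under 0.05. In PAP TRAP against cortex TRAP 8 points lie above 0 and are filled and Tubb2a lies at -1.34, in PAP TRAP against synaptoneurosome input Map1a at 0.91 is the filled point, in cortex TRAP against cortex input 8 points below 0 are filled, and in synaptoneurosome input against cortex input none is filled.

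The comparison of PAP TRAP with synaptoneurosome input asked what the immunoprecipitation changed within the fraction. It shares the PAP TRAP libraries with the comparison above. Here the same messages lay close together: Map1a was called higher, by 1.87-fold (log2 0.91 ± 0.24, adjusted p = 0.0406), and no gene of the 10 was called lower, where 4.53% of all genes were called, 3.0% higher and 1.53% lower. Before adjustment edgeR had 3 genes higher and 1 lower at p under 0.05, and DESeq2 called 2 higher and 1 lower. The median log2 change was 0.34 over the 10 genes, -0.30 over the tubulins and 0.60 over the MAPs, against 0.06 over all genes. The Map1a call was lost in 5 of 6 fits that left out 1 library of the compared groups, with adjusted p-values of 0.0637 to 0.139, and with RLE scaling (adjusted p = 0.0528), exon-length offsets (adjusted p = 0.0797) or GC offsets (adjusted p = 0.182).

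Map2 and Tubb2a missed the threshold narrowly in opposite directions. Map2 had a log2 change of 0.75 ± 0.21 (adjusted p = 0.0505) and Tubb2a one of -0.95 ± 0.29 (adjusted p = 0.0638), and neither gene's groups overlapped. Map2 passed without PAP TRAP replicate 2 (0.90, adjusted p = 0.0278), and Tubb2a passed with RLE scaling (-1.01, adjusted p = 0.0487). Mapt had a log2 change of 0.60 ± 0.27 (adjusted p = 0.219), also without overlap. For the other 6 genes the groups overlapped, and the log2 changes lay between -0.50 for Tubb4a and 0.45 for Tubb5. In the same comparison, all 6 dendritic messages were called higher (median 1.84), 3 of the 10 astrocyte markers were called higher (median 0.83) and 2 of the 10 neuron markers lower (median -0.63). The part of these other messages in the Map1a result was not tested.

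In cortex TRAP against cortex input, which asked what the immunoprecipitation changed in whole tissue, most tubulin and MAP messages were lower. Tubb3 was 9.24 times lower, Map1a 8.58, Map1b 7.03, Tubb4a 5.14 and Map2 3.65 times lower, followed by Tuba1a at 2.35, Mapt at 2.03 and Tubb5 at 1.95 times. These 8 of 10 genes were called lower and none higher, where 35.4% of all genes were called, 15.9% higher and 19.5% lower. edgeR gave 0 genes higher at an unadjusted p under 0.05 too, as did DESeq2. The median log2 change was -1.55, against 0.05 over all genes. The log2 changes of the called genes lay between -3.21 ± 0.52 for Tubb3 (adjusted p = 7.66e-05) and -0.96 ± 0.31 for Tubb5 (adjusted p = 0.0206). None of the 8 had overlapping groups. How often that held over all genes was not counted, here or in the other comparisons.

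Tubb2a and Map4 were the exceptions. Tubb2a had a log2 change of 0.31 ± 0.28 (adjusted p = 0.43) and Map4 one of 0.23 ± 0.25 (adjusted p = 0.5), both with overlapping groups. Their 95% intervals ran from -0.28 to 0.90 and from -0.28 to 0.75, so with the main settings a depletion as deep as that of Tubb5 lay outside both. With exon-length offsets the change of Tubb2a turned negative, and no interval is given for it there. The 10 neuron markers were all called lower (median -3.18) and the 10 astrocyte markers all higher (median 4.16). Without cortex TRAP replicate 1, the change of Map1b was -4.63 in place of -2.81, and without cortex TRAP replicate 3 that of Tubb3 was -3.81. With exon-length offsets Map2 moved to -0.75, Map1a to -2.25 and Map1b to -1.70, all still called, Mapt was no longer called (-0.54, adjusted p = 0.137), and Map4 was called higher (1.28, adjusted p = 0.000705). Tubb5 lost its call without cortex input replicate 2 (-0.86, adjusted p = 0.0846).

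Synaptoneurosome input against cortex input compared the fraction with whole tissue before any immunoprecipitation. None of the 10 genes was called in either direction by edgeR, where 9.32% of all genes were called, 7.26% higher and 2.07% lower. Before adjustment, p was under 0.05 for 1 higher gene, Map1a (log2 0.53 ± 0.24, adjusted p = 0.187), and 1 lower gene, Mapt (-0.85 ± 0.27, adjusted p = 0.0561). DESeq2 called 0 higher and 1 lower, Mapt (adjusted p = 0.0444). Both groups were separate for Map1a, Mapt and Tubb3, whose log2 change was -0.97 ± 0.49 (adjusted p = 0.228). For Map2 the change was 0.10, with a 95% interval of -0.35 to 0.54. The median over the 10 genes was -0.05, against -0.14 over all genes.

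Whether the immunoprecipitation changed a message differently in the fraction and in whole tissue was tested as the difference of both changes over input. It was positive for Map1a (4.01 ± 0.36), Map1b (3.14 ± 0.73), Tubb3 (2.91 ± 0.70), Map2 (2.62 ± 0.31), Tubb4a (1.86 ± 0.39), Mapt (1.62 ± 0.38) and Tubb5 (1.41 ± 0.44), and negative for Tubb2a (-1.26 ± 0.40). So 7 of the 10 genes were called higher and 1 lower, where 20.2% of all genes were called, 12.9% higher and 7.32% lower. Tuba1a had a difference of 1.01 ± 0.38 (adjusted p = 0.0685) and Map4 one of 0.13 ± 0.35 (adjusted p = 0.842). The median was 1.74, against 0.03 over all genes. Single libraries bore on 4 of the calls. Without cortex TRAP replicate 1 the difference for Map1b was 4.96, and for Tubb3 it was 3.53 without cortex TRAP replicate 3 and 2.29 without PAP TRAP replicate 3, all called. Tubb2a was no longer called when any 1 of the cortex input or synaptoneurosome input libraries, cortex TRAP replicate 1 or 2, or PAP TRAP replicate 1 was left out, with adjusted p-values of 0.0522 to 0.16. Tubb5 lost its call without cortex input replicate 2, synaptoneurosome input replicate 1 or 2, or PAP TRAP replicate 3, with adjusted p-values of 0.0722 to 0.0964. With exon-length offsets the differences were 3.01 for Map1a, 1.33 for Map2, 1.88 for Map1b (adjusted p = 0.0854), 1.00 for Mapt (adjusted p = 0.0774) and -0.66 for Tubb2a (adjusted p = 0.28), so the calls of Map1b, Mapt and Tubb2a were lost. Under the same offsets Tuba1a was called higher (1.54, adjusted p = 0.00831) and Map4 lower (-1.07, adjusted p = 0.0481). All 10 neuron markers were positive in this test at an unadjusted p under 0.05, 9 of them called, and all 10 astrocyte markers were called negative (median -3.14). The part of these in the result was not tested.

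**Figure D3:**
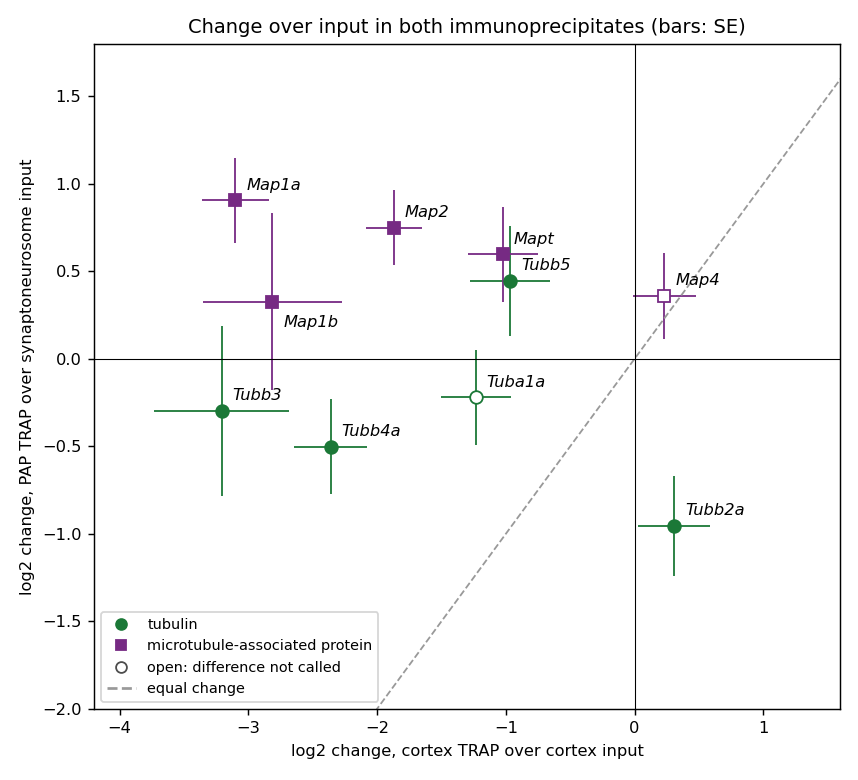
Log2 change over input in PAP TRAP (vertical axis) against that in cortex TRAP (horizontal axis) for each gene, with SE bars, tubulins as circles and MAPs as squares, open where the difference was not called. Nearly all points lie above the dashed line of equal change, Map4 close to it at 0.36 and 0.23, and Tubb2a below it at -0.95 and 0.31.

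How the tubulin messages divide among isotypes does not depend on how libraries are scaled. Tubb4a took 66.4% ± 2.57 (SD, n = 3) of the counts of the 5 tubulins in PAP TRAP and 46.1% ± 5.86 in cortex TRAP, against 70.6% ± 6.09 in synaptoneurosome input and 72.9% ± 4.88 in cortex input. Tubb2a took 5.52% ± 1.18 in PAP TRAP and 26.4% ± 6.56 in cortex TRAP, against 8.26% ± 2.11 in synaptoneurosome input and 6.68% ± 1.23 in cortex input. For both isotypes cortex TRAP stood apart from the other 3 groups without overlap. These shares rest on counts, to which longer messages contribute more, and are compared across groups for a given gene, not between genes. With 3 libraries against 3, an exact permutation test cannot go below 0.1, so none was run on shares.

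Counted over all 16 tubulin genes listed, the picture was similar. Tubb2a took 4.18% ± 0.819 in PAP TRAP and 16.2% ± 4.59 in cortex TRAP, against 7.18% ± 2.02 in synaptoneurosome input and 5.67% ± 1.02 in cortex input. Its near copy Tubb2b took 2.51% ± 1.68 in PAP TRAP and 10.2% ± 1.62 in cortex TRAP, against 1.22% ± 0.374 in synaptoneurosome input and 0.30% ± 0.194 in cortex input. Tubb4b took 1.96% ± 0.124 in PAP TRAP and 7.12% ± 1.13 in cortex TRAP, against 1.44% ± 0.0994 in synaptoneurosome input and 1.46% ± 0.227 in cortex input. All 3 took their highest share in cortex TRAP.

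Within the MAPs both Map4 and Mapt took their highest share in cortex TRAP, without overlap with the other groups. Mapt took 5.74% ± 1.66 of the counts of the 5 MAPs in cortex TRAP and 1.42% ± 0.18 in PAP TRAP. Its share was 1.35% ± 0.287 in synaptoneurosome input and 2.80% ± 0.209 in cortex input. Map4 took 9.43% ± 3.32 of the counts of the 5 MAPs in PAP TRAP and 41.0% ± 13.3 in cortex TRAP, against 10.5% ± 2.85 in synaptoneurosome input and 8.39% ± 0.948 in cortex input. Map1a took 24.9% ± 3.01 in PAP TRAP and 7.55% ± 3.27 in cortex TRAP, against 19.5% ± 1.69 in synaptoneurosome input and 15.5% ± 0.822 in cortex input. The share of Map1b in cortex TRAP was 49.95% in replicate 1 and as low as 10.3% among the others. MAP counts exceeded those of the tubulins 8.90 ± 2.62 times in PAP TRAP and 2.55 ± 0.808 times in cortex TRAP, against 4.58 ± 0.928 times in synaptoneurosome input and 3.10 ± 0.215 times in cortex input. The lowest PAP TRAP library, at 6.65, was above the highest of any other group, at 5.46. This ratio rests on raw counts, to which the longer MAP messages contribute more, so it is read across groups only. Per kb of transcript, the mean of Tubb4a stood above that of every MAP in cortex TRAP and in both inputs. In cortex TRAP its libraries (57.6 to 70.5 CPM per kb) overlapped those of Map4 (39.8 to 58.2). The part of message length in the differences between groups was not tested.

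**Figure D4:**
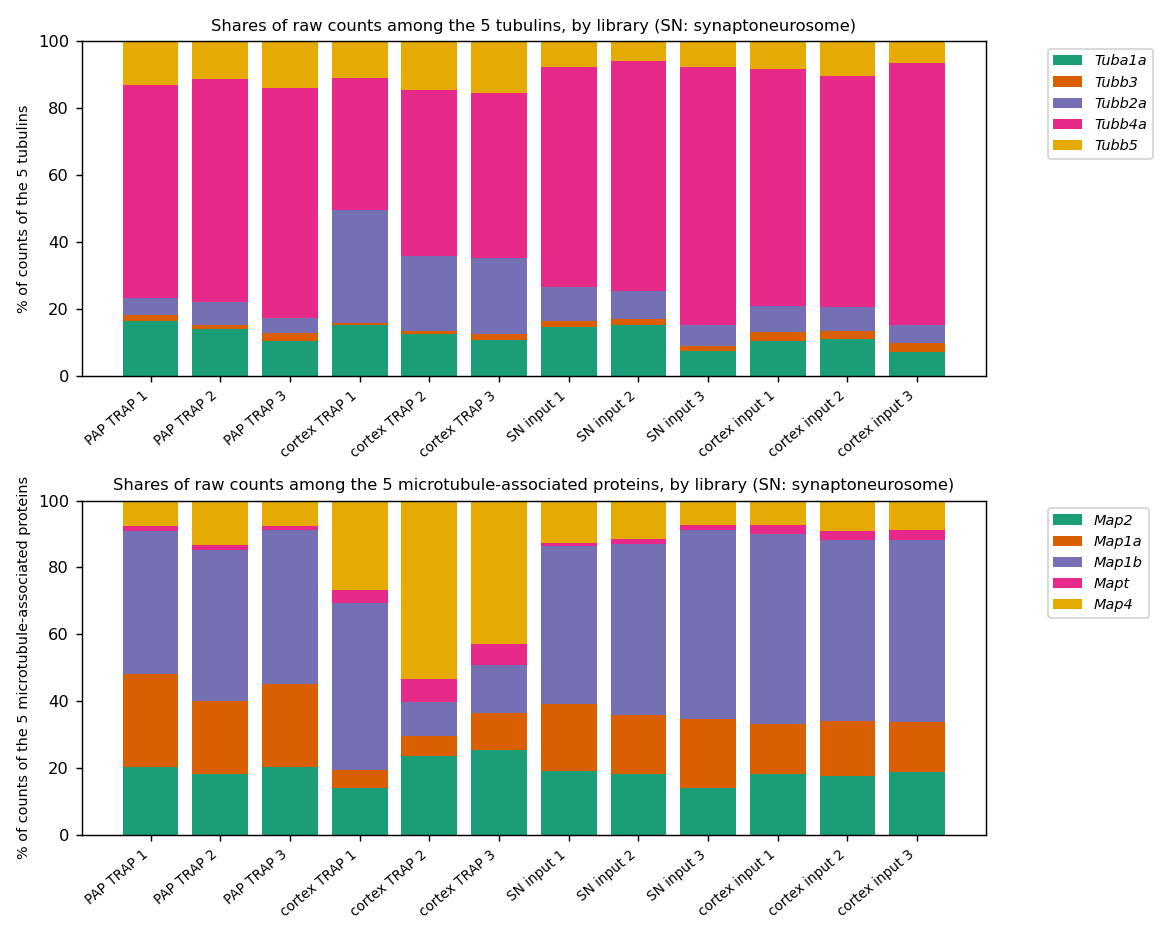
Share of raw counts of each gene within the 5 tubulins (upper panel) and within the 5 MAPs (lower panel) in each of the 12 libraries, stacked to 100%. In the cortex TRAP libraries Tubb2a takes 22.5% to 34.0% of the tubulins and Map4 26.9% to 53.2% of the MAPs, above every library of the other groups.

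Levels of different genes were set side by side as normalized CPM per kb of the longest annotated transcript. Tuba1a and Tubb2a may be understated there, since reads with more than 1 alignment were not counted. In PAP TRAP the order was Map1b (192 ± 23.8, SD, n = 3), Tubb4a (179.8 ± 58.3), Map2 (159.8 ± 30.3), Map1a (108 ± 26.7) and Map4 (76.3 ± 15.4), each overlapping its neighbour, then, below a gap, Tuba1a (43.4 ± 2.79), Tubb5 (29.0 ± 11.02), Tubb2a (19.98 ± 3.86), Mapt (13.7 ± 2.17) and, set apart, Tubb3 (5.93 ± 3.71). In cortex TRAP Tubb4a (62.9 ± 6.76), Tubb2a (50.5 ± 16.1) and Map4 (49.4 ± 9.24) overlapped at the top, and Map2 (24.3 ± 1.38), Tuba1a (21.8 ± 5.62), Map1b (20.2 ± 24.1) and Tubb5 (15.7 ± 2.04) formed a second overlapping run. Map1a, among the upper run in PAP TRAP, was at 4.65 ± 1.16 in cortex TRAP, with only Tubb3 (1.55 ± 0.767) below it.

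Both inputs opened with Tubb4a, Map1b and Map2, without overlap between neighbours. These 3 stood at 255 ± 92.3, 153 ± 22.5 and 95.1 ± 10.5 CPM per kb in synaptoneurosome input, and at 323 ± 38.9, 142 ± 4.09 and 88.8 ± 5.89 in cortex input. Both closed with Mapt and Tubb3, which overlapped.

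The rest of the tubulin family was read from a list of 11 further genes, of which 9 were tested. In PAP TRAP against cortex TRAP 1 was called higher and 3 lower, with a median log2 change of 0.35. Over all genes, 19.3% were called higher there and 14.6% lower. Tuba8, an alpha-tubulin, was the higher one (3.76 ± 1.04, adjusted p = 0.009), with 6.68 ± 9.11 normalized CPM in PAP TRAP and 0.479 ± 0.128 in cortex TRAP (SD, n = 3 each), so its libraries scattered widely. Among the lower ones, Tubb4b, a beta-tubulin of most cell types, had 15.5 ± 4.91 normalized CPM in PAP TRAP and 35.3 ± 3.52 in cortex TRAP (-1.19 ± 0.36, adjusted p = 0.0147). Tubb2b, a beta-tubulin of the developing brain, had 18.6 ± 10.9 in PAP TRAP and 50.5 ± 5.25 in cortex TRAP (-1.44 ± 0.45, adjusted p = 0.019). Against cortex input, where Tubb2b had 3.41 ± 2.04 CPM, the cortex TRAP level was higher by 3.89 ± 0.50 on the log2 scale (adjusted p = 5.28e-06). In PAP TRAP against synaptoneurosome input edgeR called none of the 9 in either direction, with 0 at an unadjusted p under 0.05 and 0 by DESeq2.

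Structural and stabilizing MAPs outside the 10 genes numbered 15, all tested. In PAP TRAP against cortex TRAP 10 were called higher and 2 lower (median 1.35), against 19.3% and 14.6% of all genes. Tppp, a microtubule bundling protein of oligodendrocytes, had 179.5 ± 59.5 normalized CPM in PAP TRAP and 19.7 ± 3.97 in cortex TRAP (3.19 ± 0.28, adjusted p = 5.77e-08). Dcx, doublecortin, which young migrating neurons use, had 29.6 ± 5.92 in PAP TRAP and 3.90 ± 2.58 in cortex TRAP (2.94 ± 0.39, adjusted p = 9.36e-06). The lower ones were Tppp3, a relative of Tppp (-2.10 ± 0.69, adjusted p = 0.0238), and Dclk2, a kinase related to doublecortin (-1.08 ± 0.41, adjusted p = 0.0481). Against synaptoneurosome input, 1 of the 15 was called, Map7d1, a recruiter of the motor kinesin-1, where 4.53% of all genes were called. Map7d1 had 45.0 ± 11.1 CPM in PAP TRAP and 21.3 ± 4.31 in synaptoneurosome input (1.08 ± 0.30, adjusted p = 0.0449).

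Stathmins, which bind free tubulin and promote disassembly, were 3 higher and 0 lower of 4 in PAP TRAP against cortex TRAP. Of all genes, 19.3% were called higher and 14.6% lower. For the stathmins, 0 were lower also at an unadjusted p under 0.05 and by DESeq2. Stmn2, which is also on the neuron marker list, had 69.9 ± 25.4 normalized CPM in PAP TRAP and 17.5 ± 3.59 in cortex TRAP (2.00 ± 0.29, adjusted p = 2.4e-05), and Stmn3 had 31.0 ± 13.8 in PAP TRAP and 9.66 ± 2.79 in cortex TRAP (1.68 ± 0.36, adjusted p = 0.00124). Against synaptoneurosome input 1 of the 4 was called lower and 0 higher (median -1.08), where 1.53% of all genes were called lower, and before adjustment edgeR had 3 lower and 0 higher at p under 0.05. DESeq2 called 3 lower and 0 higher. Stmn4, the gene edgeR called, also neuronal, had 16.8 ± 2.42 CPM in PAP TRAP and 70.4 ± 10.4 in synaptoneurosome input (-2.07 ± 0.31, adjusted p = 0.00093).

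Of 10 proteins that track growing plus ends, 1 was called higher and 2 lower in PAP TRAP against cortex TRAP (median -0.09), where 19.3% of all genes were called higher and 14.6% lower. Clip1, a plus-end linker, had a log2 change of 2.38 ± 0.39 (adjusted p = 9.5e-05). Ckap5, a microtubule polymerase, fell by 0.91 ± 0.23 (adjusted p = 0.00566) and Mapre2, an end-binding protein, fell by 0.90 ± 0.27 (adjusted p = 0.0136). Of the 15 genes for tubulin folding, 0 were called higher and 2 lower (median -0.60), with 0 higher also at an unadjusted p under 0.05 and by DESeq2. These 2 were the folding cofactor Tbca (-1.93 ± 0.50, adjusted p = 0.00562) and the prefoldin subunit Pfdn5 (-1.49 ± 0.56, adjusted p = 0.0467).

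Of the 15 tested enzymes that modify tubulin, 4 were called higher and 1 lower in PAP TRAP against cortex TRAP (median 0.87). Over all genes, 19.3% were called higher and 14.6% lower, which is the level for the severing enzymes and kinases below too. Agtpbp1, which trims glutamates off tubulin tails, had a log2 change of 2.34 ± 0.32 (adjusted p = 1.47e-05), and Ttll7, which adds them to beta-tubulin, one of 2.10 ± 0.29 (adjusted p = 1.74e-05). Atat1, the enzyme that acetylates alpha-tubulin, was lower (-0.97 ± 0.36, adjusted p = 0.0441). Sirt2, a deacetylase of alpha-tubulin abundant in myelin, had a log2 change of -0.04 ± 0.22 there (adjusted p = 0.912). It was called higher in PAP TRAP against synaptoneurosome input (0.82 ± 0.22, adjusted p = 0.0406). Of 5 tested severing enzymes Katnal1, a katanin relative, was called higher (0.87 ± 0.33, adjusted p = 0.0464). Of 9 kinases of tau and MAPs or their activators, 3 were called higher and 1 lower. The CDK5 activators Cdk5r2 (3.92 ± 0.36, adjusted p = 9.18e-08) and Cdk5r1 (2.32 ± 0.32, adjusted p = 1.22e-05) were among the higher ones, and Mark3, a kinase that frees MAPs from microtubules, was the lower one (-1.16 ± 0.33, adjusted p = 0.0106).

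Across the 12 libraries, log2 CPM of the members with each other gave a description of shared pattern, over libraries that also differ in group and depth. Pearson correlations were 0.982 for Map2 with Map1a, 0.948 for Tubb3 with Tubb4a and 0.913 for Map1a with Map1b. Tubb2a was correlated negatively with every other member, from -0.723 with Map2 to -0.209 with Tubb4a, and Map4 had no correlation above 0.45. Among 5958 candidate genes whose log2 CPM averaged 3 or more, patterns most like that of Map2 were those of Akap6 and Myo5a (0.993 each) and Zfp365 (0.992). For Tubb3 they included Kdm7a (0.981) and Dennd5b (0.976), and for Map4 they included Wnk1 (0.897) and Shisal1 (0.879).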

How the data were processed

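The 12 libraries were made from cDNA that SPIA, a linear isothermal method, had amplified from 2 ng of RNA each, per the labels' protocols. The authors deposited 1 table per library of whole-number counts per gene, with no normalization visible in the values. Per the submitters' processing notes, the tools were Trimmomatic 0.32, STAR, Bowtie2 and HTSeq, whose roles are not stated. Which genome build, annotation and strandedness the counting used is not given in the sources used here. Rows that name no gene, left out of library sizes and tests, made up 20.3% to 55.5% of all counts in a library. Within them, reads with more than 1 alignment made up 16.1% to 32.5% of all counts, which bears on tubulins with near copies. This share was 21.3% to 29.3% in PAP TRAP and 29.9% to 32.5% in cortex TRAP. The range was 16.1% to 19.5% in synaptoneurosome input and 17.5% to 18.6% in cortex input. The protocols name no molecular identifiers, so the reads of a library are not separate molecules.

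Genes were kept by filterByExpr (minimum count 10, minimum total 15), scaled by TMM (factors 0.191 to 2.46) and fitted over all 12 libraries with 1 mean per group by edgeR's quasi-likelihood F test (edgeR 4.0.16, R 4.3.3). P-values were adjusted by Benjamini-Hochberg over the 13364 genes kept, and a gene was called under 0.05. Changes are log2 ± SE. Levels are TMM-normalized CPM. Since nothing says that libraries came from separate animals, p-values measure the spread between these libraries, which may be technical. Replicates differed by more than sampling noise (chi-square per degree of freedom of 18.6 to 93.9), and the 3 libraries of each group were counted singly.

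Identifiers were matched to symbols and to GENCODE M21 for positions, lengths and sequences. The 10 genes and all lists were chosen with earlier results of these data known. Mtap, an enzyme of methionine salvage first put among the structural MAPs, was left out. All 10 genes are named, and of each list up to 2 genes called higher and 2 lower by smallest p in the comparisons of PAP TRAP. For Map2, Tubb3 and Map4 the 3 genes with the highest correlation of log2 CPM (prior count 2) were taken, of which some are not reported here. Alternatives were RLE scaling, no filter, DESeq2 1.42.0, a fit of just the groups compared, a block for the replicate number, no mitochondrial genes, thinning of nuclear counts to the smallest total, offsets corrected for exon length or GC content (loess span 0.3), and each library left out.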

Additional observations from a re-analysis of the deposited data

Results flagged for a closer look

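For 8 of the 10 genes the change over input differed between PAP TRAP and cortex TRAP in a test of the difference itself (edgeR quasi-likelihood, the interaction term over all 12 libraries), where 20.2% of all genes were called. The difference, PAP TRAP over synaptoneurosome input minus cortex TRAP over cortex input on the log2 scale, was 4.01 for Map1a, 3.14 for Map1b, 2.91 for Tubb3, 2.62 for Map2, 1.86 for Tubb4a, 1.62 for Mapt and 1.41 for Tubb5. For Tubb2a it was -1.26. With exon-length offsets the calls of Map1b (1.88, adjusted p = 0.0854 by edgeR), Mapt (1.00, adjusted p = 0.0774) and Tubb2a (-0.66, adjusted p = 0.28) were lost, and those of Tubb2a and Tubb5 were also lost when certain single libraries were left out. With 3 libraries a group, the edgeR fits included no test for a single library far from its group. DESeq2 gave no p for Map1b, which had 567, 68.6 and 80.1 normalized CPM in the cortex TRAP libraries. The reason for the missing p was not tested.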

How the results depend on the processing

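Over the 10 genes, 703 alternative values kept their direction and their side of the threshold, 35 lost the call, 26 gained it and 31 turned round, each for a change that was not called over all libraries with the main settings. In PAP TRAP against cortex TRAP, 8 genes were called higher, and 6 to 9 when a library was left out, with 1 lower throughout, except 0 lower with exon-length offsets. In PAP TRAP against synaptoneurosome input, 1 was called higher, but 0 with RLE scaling, exon-length or GC offsets, 2 with no filter, DESeq2, no mitochondrial genes or thinned counts, and 0 to 2 when a library was left out. There 0 were called lower, but 1 with RLE scaling, DESeq2, thinned counts or GC offsets. In cortex TRAP against cortex input, 1 was called higher with exon-length offsets, in place of 0. In synaptoneurosome input against cortex input, 1 was called higher with the compared groups alone and 1 lower with DESeq2 or the compared groups alone, in place of 0. Of the differences of enrichments, 7 were called higher and 1 lower, Tubb2a, but 0 lower with no filter and 0 to 1 when a library was left out. With exon-length offsets 6 were called higher, with Map1b and Mapt lost and Tuba1a gained, and the 1 lower was Map4 in place of Tubb2a. DESeq2 gave no p for Map1b and so no value. The cause of these shifts was not tested.

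Directions turned round as follows. Tuba1a in synaptoneurosome input against cortex input was at 0.080 with RLE scaling, 0.079 with DESeq2, 0.060 with the compared groups alone, 0.0054 without mitochondrial genes, 0.18 thinned, 0.38 with exon-length and 0.19 with GC offsets, and -0.18 to 0.11 when a library was left out. Tubb2a there was at 0.024 with RLE scaling and with DESeq2, 0.0012 with the compared groups alone, 0.10 thinned and with GC offsets, 0.33 with exon-length offsets and -0.21 to 0.055 when a library was left out. With exon-length offsets Tubb4a there was at 0.021, Map2 at -0.016 and Map1b at -0.0045, and Map1b was at -0.0105 to 0.20 when a library was left out. Map4 was at -0.66 in PAP TRAP against cortex TRAP and -1.07 in the difference of enrichments (adjusted p = 0.0481 by edgeR) with exon-length offsets, and that difference was -0.037 to 0.41 when a library was left out. In cortex TRAP against cortex input Map4 was at -0.044 to 0.27 and Tubb2a at -0.11 to 0.32 when a library was left out, and Tubb2a was at -0.33 with exon-length offsets. Tubb3 in PAP TRAP against synaptoneurosome input was at -0.93 to 0.0094 when a library was left out.

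Over all genes, PAP TRAP against synaptoneurosome input gave 605 calls (401 higher, 204 lower), 1188 with DESeq2 (651, 537), 304 with GC offsets (160, 144), 535 with exon-length offsets (279, 256), 724 without mitochondrial genes (573, 151) and 292 to 363 without 1 of 5 libraries. Synaptoneurosome input against cortex input gave 1246 (970 higher, 276 lower), 1963 with DESeq2, 2251 with the compared groups alone, 1397 with exon-length offsets (1228, 169), 1382 with GC offsets (1258, 124) and 608 to 814 without 1 of 4 libraries. The difference of enrichments gave 1721 higher and 978 lower, and 1203 and 1155 with exon-length offsets. In PAP TRAP against cortex TRAP the median of all genes was -0.28, -0.11 without mitochondrial genes and -0.07 with thinned counts.

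The 18 correlations of same-numbered libraries' deviations lay between 0.00575 and 0.0804. Differently numbered libraries were not correlated, so these values cannot decide whether replicate numbers pair the samples. With the replicate number as a block, 4564, 653, 4770, 1358 and 2726 genes were called in the 5 comparisons, against 4526, 605, 4737, 1246 and 2699 without it. Map4 in PAP TRAP against cortex TRAP passed under the block (0.63, adjusted p = 0.0412 by edgeR), and no other call of the 10 genes changed. Depth limits Tubb3 most, which had 28 to 535 counts a library, and the synaptoneurosome inputs held the fewest nuclear counts.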
